A study of Mus musculus with 9 samples.

Results

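The comparison set the 6 libraries with a hairpin against Camta1, 3 with shRNA A and 3 with shRNA B, against the 3 libraries with a control hairpin, over all genes. These 9 libraries are all those of the series, and 16438 of 31804 listed genes had enough reads to be tested. Each library came from dissected hippocampus of a male C57BL/6NCrl mouse, an inbred strain, with 3 animals per group according to the series' design. A short hairpin RNA (shRNA) lowers the mRNA it matches. Recombinant adeno-associated virus carried the hairpin to the dorsal hippocampus of mice aged 8 weeks, and tissue was taken 3 weeks later. All 3 groups therefore shared the surgery, the virus and the mCherry marker, a red fluorescent protein by which the infected area was cut out. The control hairpin had no target, and the tissue was a mixture of all cells in that area. In such tissue, fewer cells of a type and less RNA per cell cannot be told apart.

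Camta1 encodes a calmodulin-binding transcription activator, a large nuclear protein that is abundant in brain neurons. Members of this family carry a CG-1 domain, which in plants and flies recognises DNA with the core CGCG, and motifs that bind calmodulin, the calcium sensor of the cell. In other settings, interferons are known to switch on antiviral genes and class I antigen presentation, and p53 to switch on genes of cell cycle arrest, repair and cell death.

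Totals per library lay between 29123744 and 38189288 counts, and levels are given in CPM after TMM scaling of the libraries, so that 1 read stood for 0.0262 to 0.0343 CPM. Differences are log2 fold changes of the mean of both shRNAs minus control, with both hairpins weighted equally. They were tested over all genes with edgeR's quasi-likelihood test and Benjamini-Hochberg adjustment, at a threshold of 0.05, and "passed" refers to this test. A gene is called without overlap where all 6 knock-down libraries lay above, or all 6 below, all 3 controls. This count is a description and not a test.

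The targeted gene was lower in every knock-down library. Camta1 (ENSMUSG00000014592, chromosome 4) stood at 427, 455 and 442 CPM in the controls, at 230, 174 and 254 CPM under shRNA A, and at 239, 145 and 266 CPM under shRNA B. The highest knock-down library thus lay well below the lowest control. Knock-down libraries held 49.5% ± 10.8 (SD, n = 6) of the mean control level. Comparing the 6 with the 3 by an exact permutation test, two-sided, gave p = 0.0238, the lowest p possible here. Any gene without overlap gets this p, so it adds nothing to the levels above. The test also treats libraries of both hairpins as exchangeable. With a log2 fold change of -1.02 ± 0.18 (SE) and an edgeR adjusted p = 0.107, Camta1 itself did not pass. shRNA B replicate 2 had the lowest Camta1 of all, and without it edgeR's adjusted p was 0.00647. DESeq2 called Camta1 with adjusted p = 0.000365. Its relative Camta2 ranged from 688 to 964 CPM in controls and from 812 to 912 CPM in the knock-down libraries. Camta2 had a log2 fold change of 0.04 ± 0.09 (edgeR adjusted p = 0.924), and without control replicate 1 it was -0.09.

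Of all genes tested, 16 passed (0.0973%), 12 higher (0.073%) and 4 lower (0.0243%). None of the 16 had overlapping libraries. The risers were Ephx1, Eda2r, Cdkn1a, Phlda3, Mmp2, Cox6b2, B2m, Ccng1, I830012O16Rik, C1qc, Aldh1a1 and Mapkapk3, and the fallers included Col15a1, Myo5b and Parva. The authors' deposited table, which tests for any difference among the 3 groups, holds all 16 at an adjusted p of at most 1.68e-05. Before adjustment, 858 genes were higher (5.22%) and 852 lower (5.18%) at p under 0.05. DESeq2 called 138 higher (0.84%) and 105 lower (0.639%), and all 16 were among them. Ephx1 passed under all 19 alternative settings, Eda2r under 17 and Col15a1 under 15. Without control replicate 1 or shRNA A replicate 2 only Ephx1 passed, without control replicate 2 only Ephx1 and Eda2r, and without shRNA A replicate 1 only Ephx1, Eda2r and Phlda3.

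Without a model, 412 genes (2.51%) lay above the controls in all 6 knock-down libraries and 328 genes (2%) lay below, 740 (4.5%) in all. Scaling by library size alone gave 512 above and 253 below. At a mean level of 1 CPM or more, 365 genes lay above (2.51%) and 292 below (2.01%). Most of these genes moved little. The median log2 fold change was 0.28 in the higher set and -0.25 in the lower set, and 200 of 412 and 174 of 328 differed by less than 1.2-fold. The higher set reached further, with 40 genes at 2-fold or more against 13 in the lower set. The lower set held more abundant genes, with 108 of 328 (32.9%) at a mean of 50 CPM or more, against 90 of 412 (21.8%) in the higher set and 27.2% of all genes tested.

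**Figure D1:**
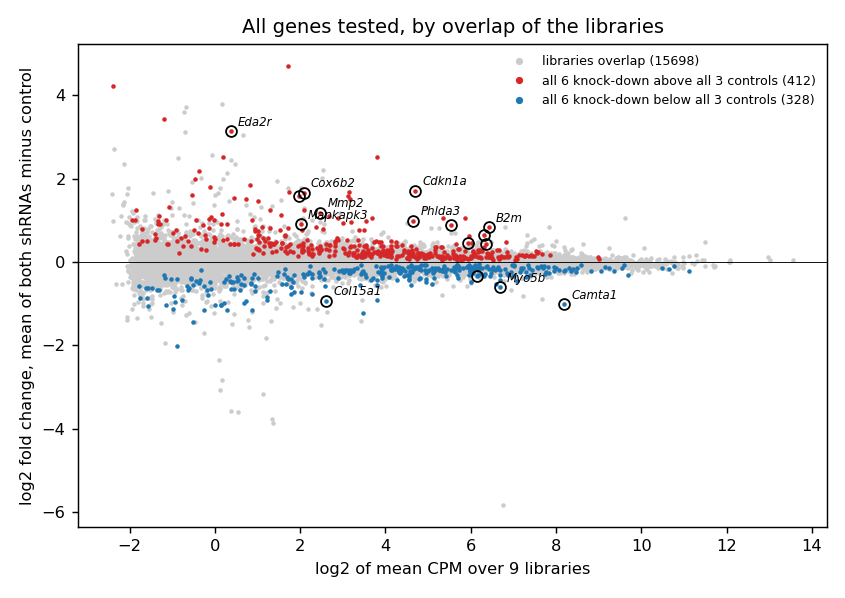
Each point is one of the 16438 genes tested, with log2 of its mean CPM over 9 libraries on the horizontal axis and the log2 fold change of both shRNAs against control on the vertical axis. Red marks the 412 genes above all controls, blue the 328 below and grey the rest, and black rings mark Camta1 and 15 of the 16 genes that passed, some of them named.

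Targets of the transcription factor p53 were the most numerous group among the risers. Of 33 listed p53 targets tested, 4 rose (Cdkn1a, Eda2r, Phlda3 and Ccng1) and 0 fell, against 0.073% of all genes that rose. Of the 33, 10 lay above all controls and 0 below, against 2.51% and 2% of all genes. The median log2 fold change was 0.18, against 0.001 for all genes, and 26 of 33 were positive, against 50.5% of all genes. Cdkn1a (ENSMUSG00000023067, chromosome 17), the cell cycle inhibitor p21, stood at 12.01, 10.1 and 8.53 CPM in controls. It stood at 30.0, 28.5 and 26.4 CPM under shRNA A and at 30.5, 51.4 and 35.6 CPM under shRNA B. The knock-down libraries did not come near the controls, and shRNA B replicate 2 was the highest. Its rise was 1.71 ± 0.18 on the log2 scale (SE, edgeR adjusted p = 0.0201). Exons of Cdkn1a overlap an antisense transcript in the annotation, and libraries without strand cannot separate their reads.

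Eda2r (ENSMUSG00000034457, chromosome X), which encodes a tumour necrosis factor receptor family member, had the largest log2 fold change of the 16, 3.14 ± 0.38 (edgeR adjusted p = 0.0177). It stood at 0.0678, 0.382 and 0.157 CPM in controls, where control replicate 1 lay below the 0.103 CPM of 3 reads. With shRNA A it stood at 1.98, 1.48 and 1.44 CPM, and with shRNA B at 1.84, 2.74 and 1.61 CPM. Each knock-down library was thus several times above each control, at a low level. Phlda3 (ENSMUSG00000041801, chromosome 1), which restrains the kinase Akt, went from 12.9, 17.5 and 15.2 CPM to 24.4, 29.7 and 30.1 CPM under shRNA A and 28.9, 38.7 and 29.7 CPM under shRNA B. Its groups stayed apart, with a log2 fold change of 0.99 ± 0.13 (edgeR adjusted p = 0.0214). Ccng1 (ENSMUSG00000020326, chromosome 11), cyclin G1, went from 62.1, 56.5 and 55.4 CPM to 93.6, 87.3 and 73.8 CPM under shRNA A and 90.2, 111 and 89.1 CPM under shRNA B. It was the most abundant of the 4, with a log2 fold change of 0.64 ± 0.09 (edgeR adjusted p = 0.0231).

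Other p53 targets lay above all controls without passing. Dcxr, a sugar and carbonyl reductase, had 6.82 to 7.35 CPM in controls and 11.7 to 21.1 CPM in the 6 knock-down libraries, a log2 fold change of 0.97 ± 0.17 (edgeR adjusted p = 0.0828). Aen, a nuclease induced in cell death, had 15.7 to 16.5 CPM in controls and 19.2 to 22.95 CPM in the knock-down libraries, with 0.38 ± 0.07 (edgeR adjusted p = 0.0828). Gdf15, a secreted stress signal, was at 0.034 to 0.064 CPM in controls, which is below 3 reads in each, and at 0.233 to 0.895 CPM in the knock-down libraries. Tnfrsf10b, a death receptor, had 0.472 to 0.573 CPM in controls and 0.74 to 1.44 CPM in the knock-down libraries, with edgeR adjusted p = 0.172. Ckap2, a spindle protein, had 0.509 to 0.78 CPM and 1.02 to 1.67 CPM, with edgeR adjusted p = 0.103. Both lay above all controls at low levels, with gaps between the nearest libraries of only 0.21 and 0.25 in log2(CPM + 0.5). Averaged over the list, log2 levels relative to the control mean were -0.03 to 0.02 in the controls, 0.28 to 0.34 with shRNA A and 0.31 to 0.54 with shRNA B. Every knock-down library, of either hairpin, lay above the controls on this average.

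**Figure D2:**
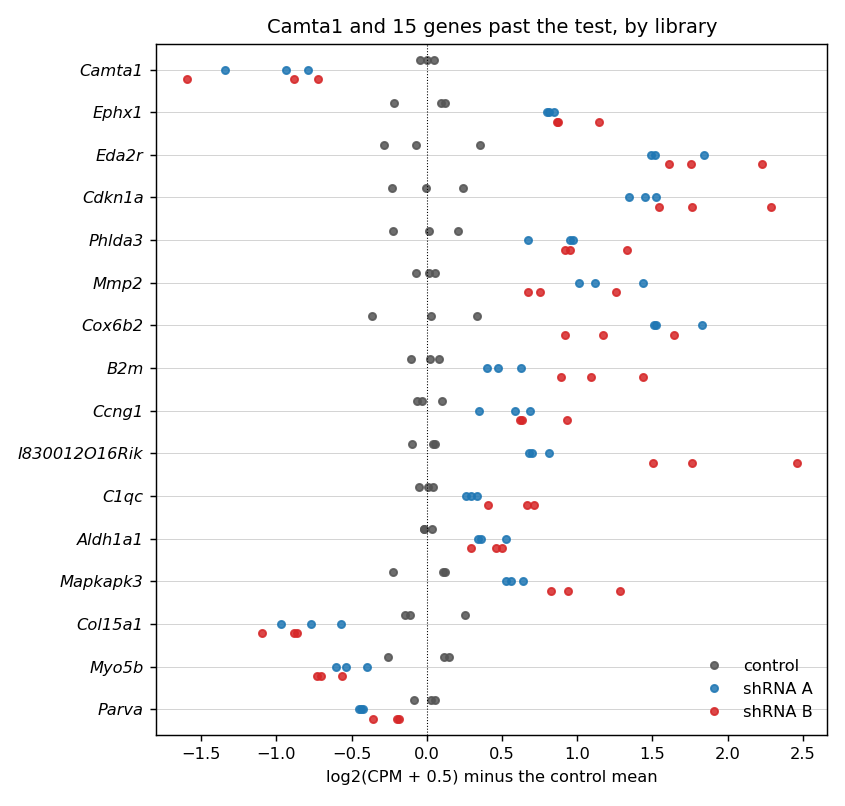
Points give log2(CPM + 0.5) minus the control mean for Camta1 and 15 of the 16 genes that passed, one point per library in grey (control), blue (shRNA A) and red (shRNA B). In each of these genes all 6 knock-down points lie on one side of all 3 control points, Camta1, Col15a1, Myo5b and Parva to the left and the other 12 to the right.

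Ephx1 and Aldh1a1, enzymes that detoxify reactive chemicals, also rose in the mean of both hairpins. Ephx1 (ENSMUSG00000038776, chromosome 1), the microsomal epoxide hydrolase, stood at 25.2, 31.4 and 32.0 CPM in controls, at 51.9, 53.1 and 51.4 CPM under shRNA A, and at 54.1, 65.5 and 53.8 CPM under shRNA B. The lowest knock-down library lay far above the highest control, and the hairpins were alike in level except for shRNA B replicate 2. The log2 fold change was 0.89 ± 0.09 (SE), with the smallest edgeR adjusted p of all genes, 0.0044. Aldh1a1 (ENSMUSG00000053279, chromosome 19), an aldehyde and retinaldehyde dehydrogenase, went from 66.2, 66.2 and 68.5 CPM to 96.8, 84.99 and 86.2 CPM under shRNA A and 95.1, 92.3 and 82.2 CPM under shRNA B. Its controls were tightly grouped, and the difference was 0.42 ± 0.06 (edgeR adjusted p = 0.0291). Of 31 listed genes of xenobiotic and aldehyde metabolism tested, 3 rose (0.073% of all genes) and 0 fell, 6 lay above all controls and 1 below (2.51% and 2% of all genes). The median was 0.036, with 18 positive and 13 negative, and 0.013 without control replicate 1. The third riser on that list, Cox6b2, is a cytochrome c oxidase subunit and not a detoxifying enzyme. It is also 1 of the 6 above all controls and enters the median. Hmox1, heme oxygenase, had 4.77 to 5.10 CPM in controls and 5.60 to 8.62 CPM in the knock-down libraries, with 0.43 ± 0.11 (edgeR adjusted p = 0.187), and Aldh4a1, of proline breakdown, had 0.35 ± 0.08 (edgeR adjusted p = 0.132). The member that lay below all controls was Aldh1a2, which is also on the meningeal list.

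Cox6b2 (ENSMUSG00000051811, chromosome 7), best known from testis, stood at 1.19, 1.72 and 2.24 CPM in controls, at 5.75, 7.24 and 5.70 CPM under shRNA A, and at 4.40, 6.29 and 3.60 CPM under shRNA B. Its log2 fold change was 1.66 ± 0.22 (edgeR adjusted p = 0.0214). Mmp2 (ENSMUSG00000031740, chromosome 8), a secreted metalloproteinase that cuts extracellular matrix, stood at 2.82, 3.12 and 3.02 CPM in controls. It stood at 7.06, 8.94 and 6.51 CPM under shRNA A and 5.38, 7.83 and 5.05 CPM under shRNA B, a log2 fold change of 1.18 ± 0.16 (edgeR adjusted p = 0.0214). In these genes the shRNA A libraries tended to be the higher ones, whereas in Mapkapk3 the shRNA B libraries were. Mapkapk3 (ENSMUSG00000032577, chromosome 9), a kinase in stress signalling downstream of p38, went from 2.07, 2.74 and 2.77 CPM to 3.93, 4.18 and 3.83 CPM under shRNA A and 5.27, 6.82 and 4.83 CPM under shRNA B. Its difference was 0.90 ± 0.15 (edgeR adjusted p = 0.047).

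Genes of MHC class I presentation, by which cells show peptides to T cells, and genes induced by interferon lay high in the knock-down libraries. B2m (ENSMUSG00000060802, chromosome 2), the light chain of MHC class I, stood at 51.2, 58.6 and 56.1 CPM in controls. It stood at 85.6, 77.01 and 73.0 CPM under shRNA A and at 103, 151 and 118 CPM under shRNA B, so that the groups formed 3 steps without overlap. Its log2 fold change was 0.83 ± 0.11 (edgeR adjusted p = 0.0214), made of 0.51 ± 0.12 with shRNA A and 1.16 ± 0.12 with shRNA B. Of 20 genes of class I presentation tested, 1 rose (B2m) and 0 fell, against 0.073% and 0.0243% of all genes. Of the 20, 10 lay above all controls and 0 below, against 2.51% and 2% of all genes, with a median of 0.59. H2-D1, a class I heavy chain, had 30.4, 35.2 and 32.4 CPM in controls, 53.6, 51.4 and 46.7 CPM under shRNA A and 62.3, 123 and 88.3 CPM under shRNA B. Its log2 fold change was 1.05 ± 0.19, but edgeR's adjusted p was 0.112. H2-K1, the other classical heavy chain of this strain, had 1.04 ± 0.22 (edgeR adjusted p = 0.148), and Tap1, the peptide transporter, had 1.09 ± 0.26 (edgeR adjusted p = 0.187). Heavy chain genes resemble each other closely, so reads could be split between them or lost.

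Of 45 interferon-induced antiviral genes tested, 0 rose or fell over all genes, 42 were higher at an unadjusted p under 0.05 (5.22% of all genes), 14 lay above all controls (2.51% of all genes) and 0 below. Their median log2 fold change was 1.003, made of 0.54 with shRNA A and 1.49 with shRNA B. Of 15 genes listed as interferon-inducible GTPases, 0 rose or fell, and 12 were higher at an unadjusted p under 0.05 (5.22% of all genes). Of the 15, 6 lay above all controls (2.51% of all genes), among them Ifi204, which is not a GTPase. The median of the 15 was 1.12, made of 0.61 with shRNA A and 1.53 with shRNA B. Their average in shRNA A replicate 3 was -0.071, below the controls at -0.036 to 0.053. The average over the antiviral list was -0.06 to 0.07 in controls, 0.52 and 0.64 in shRNA A replicates 1 and 2, 0.90 to 1.83 with shRNA B, and 0.06 in shRNA A replicate 3, inside the control range. Thus 5 of the 6 knock-down libraries stood above the controls on this list and 1 did not. Oasl2, of the oligoadenylate synthetase family, lay above all controls in all 6, with shRNA A replicate 3 nearest to them. It had 2.65 to 2.74 CPM in controls, 11.8, 8.14 and 3.14 CPM under shRNA A and 18.2, 48.7 and 28.0 CPM under shRNA B, a log2 fold change of 2.53 ± 0.53 with edgeR adjusted p = 0.182. Ifit3, which binds viral RNA complexes, had 2.58, 2.90 and 3.94 CPM in controls, 6.10, 7.30 and 4.32 CPM under shRNA A and 11.1, 24.7 and 16.6 CPM under shRNA B (1.69 ± 0.30, edgeR adjusted p = 0.107). Gbp3, a guanylate-binding protein, had 1.51 ± 0.28 (edgeR adjusted p = 0.114) and Isg15, a ubiquitin-like modifier, 1.67 ± 0.45 (edgeR adjusted p = 0.243).

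I830012O16Rik (ENSMUSG00000062488, chromosome 19), a member of the Ifit family, was outside these lists and did pass. It stood at 1.59, 1.401 and 1.61 CPM in controls, at 3.07, 2.80 and 2.75 CPM under shRNA A and at 5.27, 10.7 and 6.40 CPM under shRNA B, a log2 fold change of 1.59 ± 0.23 (edgeR adjusted p = 0.0231). Its promoter and that of Ifit3 are 86.2% identical over 218 bases. The transcripts were not compared, so whether reads were split between these genes was not tested. Of the 30 genes of the interferon and class I lists that lay above all controls, 25 have a promoter in the RefSeq table of build GRCm38.p6. In the 250 bases before the start, 11 of these 25 (44%) hold GAAA, any 2 bases and GAAA on either strand, the core of the element through which interferon acts. The motif is in 361 of 11642 tested genes with a promoter in the table (3.1%) and in 2.98% of all windows. None of the 9 p53 targets above all controls with a window holds it. Among genes above all controls outside these lists and the p53 list, 13 of 257 with a window hold it (5.06%). The 25 genes come from lists of genes known for interferon induction or class I presentation. The motif could therefore be expected from list membership alone, and the share among list members with overlap was not counted. A match is a description of these letters and not a shown binding site. The stretches are given because they are a feature that 11 of these 25 genes share beyond their level. They run 5′ to 3′ on the gene's strand, with the match in capitals, which reads TTTC, any 2 bases and TTTC where it lies on the other strand.
B2m, chr2:122147523-122147582, plus strand: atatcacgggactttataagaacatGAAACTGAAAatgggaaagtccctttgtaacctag
Isg15, chr4:156200850-156200909, minus strand: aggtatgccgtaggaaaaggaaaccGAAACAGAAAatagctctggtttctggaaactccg
Gbp3, chr3:142559980-142560039, plus strand: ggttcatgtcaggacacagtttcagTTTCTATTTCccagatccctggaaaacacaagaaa
Irgm1, chr11:48871421-48871469, minus strand: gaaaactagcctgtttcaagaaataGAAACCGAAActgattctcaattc
Igtp, chr11:58199497-58199555, plus strand: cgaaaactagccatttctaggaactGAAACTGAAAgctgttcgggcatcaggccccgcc
Bst2, chr8:71537562-71537621, minus strand: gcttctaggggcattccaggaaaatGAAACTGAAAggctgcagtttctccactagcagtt
Ifit3, chr19:34583382-34583441, plus strand: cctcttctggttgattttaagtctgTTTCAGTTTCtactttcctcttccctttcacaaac
I830012O16Rik, chr19:34607778-34607837, plus strand: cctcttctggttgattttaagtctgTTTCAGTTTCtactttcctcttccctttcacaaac
The stretches of Ifit3 and I830012O16Rik are the same letter for letter over these 60 bases.

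Markers of microglia, the resident macrophages of the brain, also lay higher in the knock-down libraries. Of 25 tested, 1 rose (C1qc) and 0 fell, against 0.073% and 0.0243% of all genes. Of the 25, 6 lay above all controls and 0 below, against 2.51% and 2% of all genes, with a median of 0.20. C1qc (ENSMUSG00000036896, chromosome 4), a chain of complement C1q, stood at 46.9, 50.2 and 49.1 CPM in controls, at 59.9, 58.4 and 61.7 CPM under shRNA A and at 64.9, 80.2 and 77.7 CPM under shRNA B. All knock-down libraries exceeded the controls, with a log2 fold change of 0.45 ± 0.07 (edgeR adjusted p = 0.028). C1qa and C1qb, the other chains, had 0.45 ± 0.08 and 0.44 ± 0.09 with edgeR adjusted p = 0.0654 and 0.101. The summed level of the 25 markers was 823.6 to 869.6 CPM in controls, 869.5 to 986 CPM under shRNA A and 988 to 1093 CPM under shRNA B. On this sum shRNA A replicate 2 lay just inside the control range. Of 23 genes of activated microglia tested, 0 passed and 6 lay above all controls (2.51% of all genes), with a median of 0.37. Cxcl10, a chemokine that interferon induces, had 0.0339, 0.191 and 0.157 CPM in controls, 1.09, 2.99 and 0.295 CPM under shRNA A and 3.90, 14.5 and 6.37 CPM under shRNA B (edgeR adjusted p = 0.197). Its control level was at most a few reads, so the size of its difference is poorly fixed.

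Lymphocyte transcripts were scarce. Of 15 T cell markers, 4 had enough reads to be tested, and Cd3d, Cd3e, Cd3g, Cd8a, Cd8b1 and Cd4 did not. The list summed to 1.86 to 2.67 CPM in controls and 1.79 to 5.85 CPM in the knock-down libraries. Of 9 B cell markers 1 was tested, Ighm, the heavy chain of immunoglobulin M, which lay above all controls with 5.77, 8.05 and 9.23 CPM in controls and 10.9 to 15.1 CPM in the knock-down libraries (0.76 ± 0.14, edgeR adjusted p = 0.0828). Reactive astrocyte genes had a median of 0.19, made of 0.015 with shRNA A and 0.24 with shRNA B. Of these genes, 3 of 23 lay above all controls, against 2.51% of all genes. They were Vim, Cxcl10 and Psmb8, of which Cxcl10 is also on the activated microglia list and Psmb8 on the class I list. Astrocyte markers had a median of 0.01 with 0 of 22 on either side. The median of reactive astrocyte genes was 0.08 without control replicate 1 and 0.08 without control replicate 3. Oligodendrocyte genes had a median of 0.28 with 22 of 23 positive, yet 0 without overlap and 0 at an unadjusted p under 0.05. Their median was 0.14 without control replicate 1. The part of other cell types in the interferon and microglia values was not tested.

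**Figure D3:**
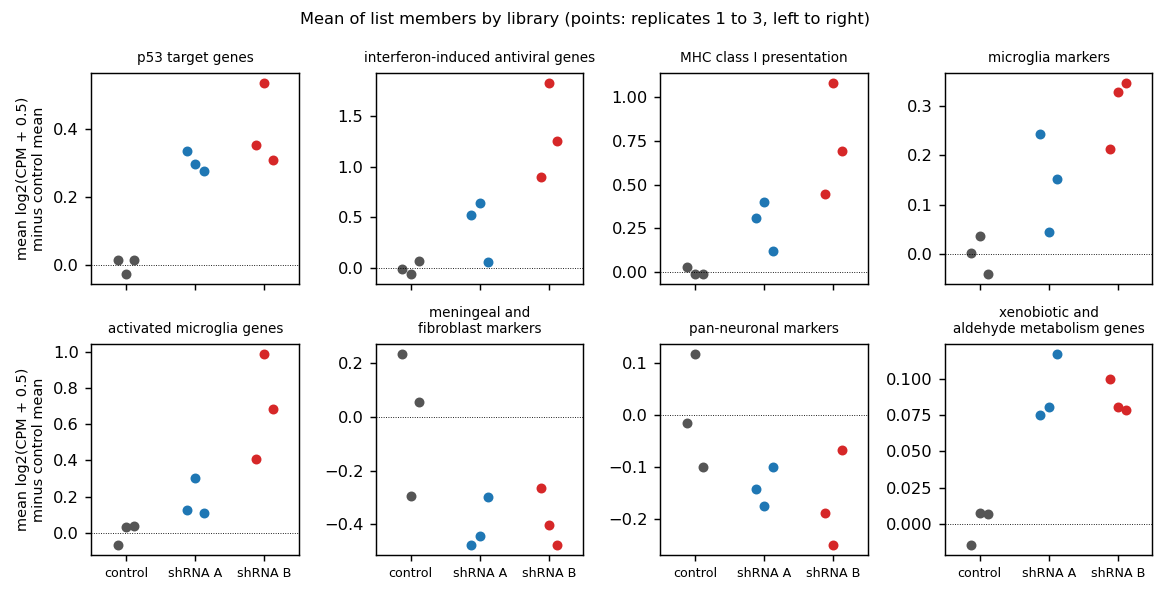
Each panel averages log2(CPM + 0.5) minus the control mean over the tested members of one gene list, with one point per library. p53 targets, class I genes, microglia and activated microglia genes and the xenobiotic list lie above the controls in all 6 knock-down libraries. The antiviral list does so in 5, and the meningeal and pan-neuronal lists overlap with the controls. The xenobiotic list includes Cox6b2, which is not a detoxifying enzyme, and its average without Cox6b2 was not computed.

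In the other direction 4 genes fell. Col15a1 (ENSMUSG00000028339, chromosome 4), a collagen of basement membranes, stood at 10.6, 8.12 and 7.90 CPM in controls, at 4.25, 4.95 and 5.76 CPM under shRNA A, and at 3.85, 4.62 and 4.54 CPM under shRNA B. Every knock-down library was below the lowest control, and control replicate 1 was the highest. The log2 fold change was -0.93 ± 0.13 (SE, edgeR adjusted p = 0.0214), so that it fell by 47.6%. Col15a1 is the one faller with a promoter in the RefSeq table, and its window of 250 bases holds CGCG, the core that family members recognise. The stretch around it, up to the start of the gene, has the match in capitals.
Col15a1, GRCm38.p6 chr4:47207971-47208011, plus strand: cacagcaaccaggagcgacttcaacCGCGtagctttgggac
CGCG is also in 64.7% of tested genes with a window and in 4 of 11 risers that passed (36.4%), so its presence sets no gene apart.

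Myo5b (ENSMUSG00000025885, chromosome 18), a myosin motor that carries recycling endosomes in dendrites, stood at 145, 142 and 110 CPM in controls. It stood at 99.8, 90.5 and 86.3 CPM under shRNA A and 88.9, 78.9 and 80.4 CPM under shRNA B. Control replicate 3 lay nearest to the knock-down libraries, and the log2 fold change was -0.60 ± 0.09 (edgeR adjusted p = 0.0231), so that it fell by 34.1%. Parva (ENSMUSG00000030770, chromosome 7), parvin alpha, which ties integrins to actin, went from 85.6, 84.2 and 77.6 CPM to 60.04, 60.8 and 61.2 CPM under shRNA A and 72.5, 71.7 and 64.1 CPM under shRNA B. It was the only faller that was lower with shRNA A than with shRNA B, and its log2 fold change was -0.35 ± 0.06 (edgeR adjusted p = 0.0473). Under the 19 alternatives Myo5b passed in 14 and Parva in 10.

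Col15a1 is also one of the markers of meninges and fibroblasts, the connective tissue around the brain. Of 20 such markers tested, 1 fell (Col15a1) and 0 rose, against 0.0243% and 0.073% of all genes. Of the 20, 6 lay below all controls and 0 above, against 2% and 2.51% of all genes. The list's median was -0.50, with 17 of 20 negative. Gpc3, a proteoglycan of the cell surface, had 5.87, 4.04 and 4.35 CPM in controls, 3.04, 3.38 and 2.81 CPM under shRNA A and 2.46, 2.36 and 2.64 CPM under shRNA B (-0.78 ± 0.14, edgeR adjusted p = 0.0651). The GABA transporter gene Slc6a13 had -0.73 ± 0.16 (edgeR adjusted p = 0.12), Aldh1a2, which makes retinoic acid there, -0.70 ± 0.17 (edgeR adjusted p = 0.148), and the collagen genes Col1a1 and Col3a1 -0.38 ± 0.10 and -0.54 ± 0.17 (edgeR adjusted p = 0.187 and 0.268). In all 6 genes without overlap control replicate 1 was the highest library. The list average was 0.24, -0.29 and 0.06 in controls and -0.48 to -0.26 in the knock-down libraries, so control replicate 2 lay among them. The summed level was 134 to 205 CPM in controls and 112 to 132 CPM in the knock-down libraries, and the list's median was -0.33 without control replicate 1. How much meningeal tissue each dissection held was not tested.

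Several genes lay below all controls without passing the test. Htr2c (chromosome X), the serotonin 2C receptor, had 21.6, 13.5 and 17.9 CPM in controls, 9.39, 8.11 and 10.3 CPM under shRNA A and 5.38, 4.72 and 8.53 CPM under shRNA B. All knock-down libraries lay below the lowest control, with a log2 fold change of -1.22 ± 0.19 and edgeR adjusted p = 0.0654. Htr2c is also abundant in the choroid plexus, whose markers were uneven. Ttr, their defining transcript, stood at 935 CPM in control replicate 3 and at 1.42 to 16.2 CPM in the other 8 libraries. Htr2c stood at 17.9 CPM in control replicate 3 and was highest in control replicate 1, at 21.6 CPM. The part of choroid plexus tissue in the Htr2c values was not tested. The choroid list had a median of -0.55 with 0 of 11 members without overlap, and -0.02 without control replicate 3.

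Nos1, the neuronal nitric oxide synthase, which calmodulin activates, had 172, 169 and 157 CPM in controls, 118, 124 and 110 CPM under shRNA A and 112, 150 and 116 CPM under shRNA B. The groups did not overlap, and shRNA B replicate 2 came closest to the controls. The log2 fold change was -0.45 ± 0.09 (edgeR adjusted p = 0.0902), and exons of Nos1 overlap an antisense transcript. Capn5, a calcium-dependent protease, had 93.4 to 106 CPM in controls and 72.8 to 86.3 CPM in the knock-down libraries (-0.35 ± 0.07, edgeR adjusted p = 0.0828). Hpcal1, a neuronal calcium sensor, had 33.1 to 44.0 CPM in controls and 24.9 to 28.7 CPM in the knock-down libraries (-0.48 ± 0.09, edgeR adjusted p = 0.0706). Tnfaip8l3, a phosphoinositide transfer protein, and Pnma3, a paraneoplastic antigen family member on chromosome X, had -0.40 ± 0.08 and -0.35 ± 0.06 (edgeR adjusted p = 0.0893 and 0.0618). The transcripts Gm12428 and 4933427G17Rik completed the named set, at -0.42 ± 0.07 and -1.16 ± 0.22 (edgeR adjusted p = 0.0647 and 0.0828).

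Abundant neuronal genes were found in the lower set at small differences. Nptx1, neuronal pentraxin 1, had 895 to 978 CPM in controls and 688 to 875 CPM in the knock-down libraries (-0.31 ± 0.07, edgeR adjusted p = 0.136). Cnr1, the cannabinoid receptor, had 167 to 209 CPM in controls and 143 to 164 CPM in the knock-down libraries (-0.32 ± 0.07, edgeR adjusted p = 0.136). Cplx2, complexin 2 of the release machinery, had 2461 to 2475 CPM in controls and 1968 to 2300 CPM in the knock-down libraries, with a log2 fold change of -0.23 ± 0.06 and edgeR adjusted p = 0.219. Its controls differed from each other far less than the knock-down libraries did. Chrna7, a nicotinic receptor subunit, Kcnd3, a potassium channel, and Cacna2d1, a calcium channel subunit, each lay below all controls with log2 fold changes between -0.35 and -0.27. None of these passed, with edgeR adjusted p between 0.103 and 0.148.

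**Figure D4:**
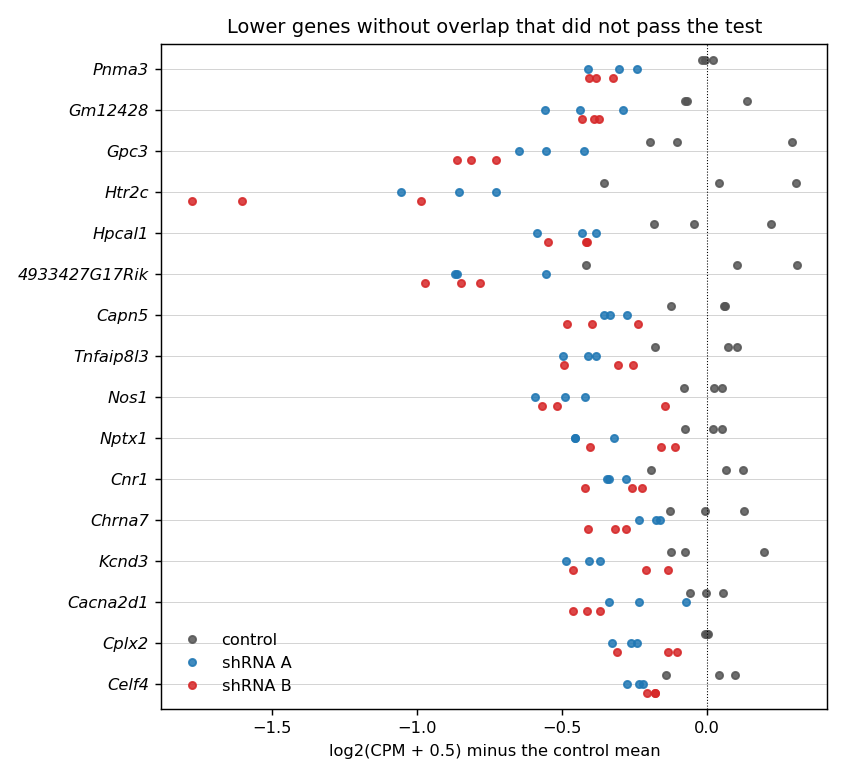
Points give log2(CPM + 0.5) minus the control mean, one per library, for genes below all controls that did not pass. Htr2c and 4933427G17Rik reach furthest to the left. The nearest knock-down and control points almost meet in Kcnd3, Cacna2d1, Cnr1, Nptx1, Chrna7 and Celf4.

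No member of the neuronal lists passed the test, and most members were slightly negative in several of them. Of 22 pan-neuronal markers, 21 had a negative log2 fold change, 0 passed and 1, Celf4, lay below all controls (2% of all genes). At an unadjusted p under 0.05, 7 of these 22 and 7 of 37 presynaptic genes were lower, against 5.18% of all genes. The pan-neuronal markers had a median of -0.14, which was -0.07 without control replicate 2. Presynaptic genes had a median of -0.10, and -0.05 without control replicate 2. Of the 37, 27 were negative and 1 lay below all controls (2% of all genes). Calmodulin and calcium-dependent signalling genes are the class closest to what Camta1 is named for. Their median was -0.06, with 25 of 36 negative and 0 past the test. Of the 36, 2 lay below all controls (2% of all genes), Nos1 and Camta1, and Camta1 is the hairpins' own target. That median was -0.03 without control replicate 2 and -0.09 without control replicate 1. GABA-A receptor genes had a median of -0.06 with 13 of 14 negative, glutamate receptor genes -0.03, and potassium and HCN channel genes 0.01. Cholesterol synthesis genes, which are coregulated, had a median of -0.15 with 18 of 19 negative and 0 without overlap. Their control averages ran from -0.15 to 0.12, and leaving out control replicate 2 gave a median of -0.07. Markers of dentate granule cells had a median of -0.23 with 0 of 19 without overlap, and -0.09 without control replicate 3.

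**Figure D5:**
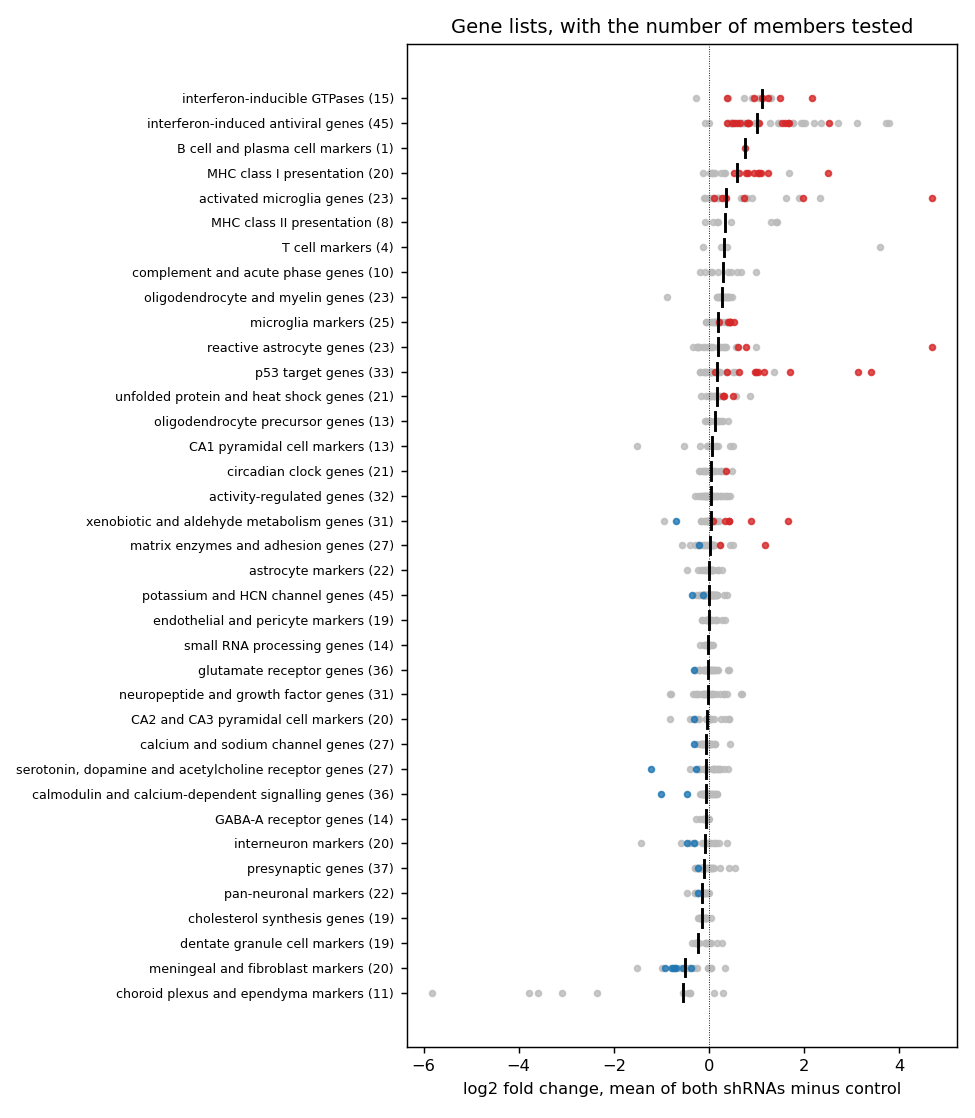
Each row is a gene list with the number of members tested, each point a gene at its log2 fold change for both shRNAs against control, and the black bar the list's median. Red points lie above all controls in all 6 knock-down libraries and blue points below. Blue points are most frequent in the meningeal list and red points in the interferon, class I and p53 lists.

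Of the remaining lists, the circadian clock genes had a median of 0.05 with 14 of 21 positive. Per2, a repressor in the clock, had 65.1, 65.6 and 69.6 CPM in controls, 70.6, 79.3 and 77.9 CPM under shRNA A and 97.2, 102 and 89.1 CPM under shRNA B. It lay above all controls with a log2 fold change of 0.36 ± 0.06 (edgeR adjusted p = 0.0651), with 0.19 under shRNA A and 0.53 under shRNA B. Genes of the unfolded protein response and heat shock had a median of 0.17 with 3 of 21 above all controls (2.51% of all genes). Ddit3, the stress factor CHOP, had 21.5 to 23.6 CPM in controls and 24.6 to 32.4 CPM in the knock-down libraries (0.32 ± 0.08, edgeR adjusted p = 0.147). That list's median was 0.27 without control replicate 1, 0.11 without control replicate 3 and 0.09 without shRNA B replicate 1. In all, 66 of the 412 genes above all controls and 19 of the 328 below belong to any of the 37 lists. The lists hold 793 of the 16438 genes tested, a share close to that in the lower set. Most genes of both sets are thus on none of the lists.

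The hairpins entered the mean with unequal sizes. Alone against the same 3 controls, shRNA A had 4 genes past the test (0.0243%) and shRNA B 167 (1.02%), and of the 16 genes of the mean contrast 4 passed with shRNA A and 15 with shRNA B. The 4 were Ephx1, Eda2r, Mmp2 and Cox6b2, and Parva did not pass with shRNA B. Values for each hairpin share the controls and are therefore given side by side only. They were 0.82 and 0.97 for Ephx1, 1.48 and 1.94 for Cdkn1a, 0.42 and 0.42 for Aldh1a1, 1.33 and 1.02 for Mmp2, and -0.83 and -1.03 for Col15a1, with shRNA A first. In a direct test of shRNA B minus shRNA A, edgeR called 0 genes (0%) and limma-voom 0, with 1536 genes (9.34%) and 1578 genes (9.6%) at an unadjusted p under 0.05. DESeq2 called 123 (0.748%). Of the 16 genes, 7 had an unadjusted p under 0.05 in that test. Among them were I830012O16Rik, at 1.37 higher with shRNA B (edgeR adjusted p = 0.0905), and B2m at 0.66 higher (edgeR adjusted p = 0.129). With 3 libraries per hairpin, a difference of this size was not called, which does not show that the hairpins act alike.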

How the data were processed

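Hippocampal polyA RNA-seq libraries without strand information were compared. The authors deposited whole-number read counts per Ensembl gene, per the file headers. Reads were handled, per the submitters' processing notes, with R 3.1.1, DESeq2 1.4.5, HTSeq 0.6.1, SAMtools 0.1.19 and TopHat 1.4.1 on build mm9. The authors' deposited table also holds a mean normalized signal, log2 fold changes with standard errors, a test score, and p-values with adjusted p-values of a likelihood ratio test, per the file headers. 0 sample columns were unmatched to labels.

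Counts were analysed as deposited in R 4.3.3. edgeR 4.0.16 kept 16438 genes (filterByExpr), scaled by TMM and fitted 3 group means over 9 libraries with a robust quasi-likelihood fit, in which the common biological coefficient of variation was 9.4%. All tests were two-sided. limma 3.58.1 (voom) and DESeq2 1.42.0 were alternatives. The permutation test doubles the smaller tail. Floors of 3 reads cover counting error only. Replicate libraries differed beyond counting noise (chi-square per degree of freedom at least 7.9). On simulated counts over 16324 genes the mean contrast recovered 74.6%, 92.5% and 100% of genes changed 1.5-, 2- and 4-fold. Of 193 calls 15 were false, a share above the threshold of the test. These shares hold for the simulated counts only and are no measure of recovery in the libraries. There, 40 genes above and 13 below all controls differed 2-fold or more, whereas 12 higher and 4 lower genes passed. Camta1 and H2-D1, at log2 fold changes of -1.02 and 1.05, did not pass.

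The deposited table gave 20451 symbols, a gene-name list 6573 more, and 4780 genes kept the identifier. Chromosomes are those in the table. Promoters are from RefSeq. Overlapping exons were looked up in GENCODE M21. Named genes were those that passed, in each direction the 12 non-overlapping genes of at least 1 CPM with the smallest p where fewer passed, the 5 of at least 50 CPM, and up to 4 per list by p. Ifit3, Oasl2, Isg15, Tap1 and other list members without overlap, and genes of chromosome X, were added after their values were seen. Some genes are not reported here by name. The comparison, lists and rules were chosen with earlier results of these data known. Alternatives changed scaling, filter, tool or grouping, or left out 1 library each.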

Additional observations from a re-analysis of the deposited data

How the results depend on the processing

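Against 16 genes past edgeR's test, no low-count filter gave 67 (39 higher, 28 lower), DESeq2 243, and both shRNAs treated as 1 group 8 (6 higher, 2 lower). Leaving out 1 library gave between 1 and 52 genes: 1, 2 and 18 without control replicates 1, 2 and 3, then 3, 1 and 6 without those of shRNA A, and 52, 36 and 23 without those of shRNA B, in label order. Of the 18 without control replicate 3, 14 were lower, and 7 were among the 16. Genes without overlap numbered 740, and 865 to 1963 when 1 library was left out, which is easier to meet with fewer libraries. For shRNA B minus shRNA A, no filter gave 21, DESeq2 123 and leaving out 1 library 0 to 110. With the replicate number as a block, 31 genes passed (23 higher, 8 lower) for the mean and 1 for shRNA B minus shRNA A. Correlations of same-numbered libraries ran from -0.12 to 0.34 (median -0.003). Those of differently numbered libraries ran from -0.23 to 0.19 (median -0.006). The highest, 0.34, was between replicate 3 of shRNA A and replicate 3 of shRNA B. Whether the numbers pair the libraries cannot be told from these values. The log2 fold change of Camta1 was -1.02 with DESeq2 (adjusted p = 0.000365), -1.02 with robust estimation off (0.0439), -1.06 with the replicate block (0.04), and -1.10 to -0.91 when 1 library was left out, past the threshold without shRNA B replicate 2. Of 3638 values of named genes under 19 alternatives, 3374 kept direction and side of the threshold, 91 lost the call, 167 gained it and 6 changed sign. When 1 library was left out, these 5 genes ranged from -6.51 to 0.72 (Ttr, positive without control replicate 3), -4.34 to 0.54 (Clic6, likewise), -0.054 to 0.61 (Trac, negative without control replicate 3), -0.24 to 0.045 (Lck, 0.045 without control replicate 2, 0.017 if shRNA A replicate 1 was absent) and -0.086 to 0.15 (Camta2, negative without control replicate 1). The causes were not tested. Tests of 3 libraries against 6 at a coefficient of variation near 9.4% limit what could be called among genes of small difference.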

Other observations

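Genes on the X chromosome were unevenly placed among those without overlap, which no list above describes. Of genes with a chromosome in the deposited table, 26 of 298 below all controls (8.72%) were on chromosome X and 6 of 369 above all controls (1.63%), against 503 of 14668 genes tested (3.43%). The share in the lower set ran from 6.28% to 9.65% over changes of scaling and filter and over leaving out 1 library. The median log2 fold change was -0.06 on chromosome X, where 342 of 503 genes were negative, against 0.003 on the autosomes. The median of chromosome X in a library, relative to the control mean, was 0.03, -0.02 and -0.01 in controls. It was -0.02, -0.04 and -0.09 under shRNA A and -0.04, -0.05 and -0.05 under shRNA B. shRNA A replicate 1 thus lay inside the control range, between control replicates 2 and 3, and the other 5 knock-down libraries lay below the controls.

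Beside Htr2c, Gpc3 and Pnma3, the lower set of this chromosome held Dcx, Atp2b3, Sytl4 and Car5b. Dcx, doublecortin of young neurons, had 21.7, 18.1 and 19.9 CPM in controls and 14.3 to 16.2 CPM in the knock-down libraries, a log2 fold change of -0.37 ± 0.07 (SE, edgeR adjusted p = 0.103). Atp2b3, a plasma membrane calcium pump, had 226 to 259 CPM in controls and 181 to 225 CPM in the knock-down libraries (-0.29 ± 0.06, edgeR adjusted p = 0.11). Sytl4, a Rab effector of granule release, had 1.86 to 3.19 CPM in controls and 0.982 to 1.65 CPM in the knock-down libraries (-0.93 ± 0.19, edgeR adjusted p = 0.107). Car5b, a mitochondrial carbonic anhydrase, had -0.53 ± 0.12 (edgeR adjusted p = 0.12). All animals were labelled male. These genes were picked after their values were seen, and Eda2r on the same chromosome rose.

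Off chromosome X, Nr2f2, the nuclear receptor COUP-TFII, had 30.2, 15.8 and 14.9 CPM in controls and 9.75 to 11.8 CPM in the knock-down libraries (-0.91 ± 0.21, edgeR adjusted p = 0.175). Wdr6, a protein with repeats of the WD type, had 151, 116 and 110 CPM in controls and 79.5 to 102 CPM in the knock-down libraries (-0.44 ± 0.11, edgeR adjusted p = 0.175). In both, control replicate 1 was far above the other controls, and the knock-down libraries were close to each other.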
